A study of Mus musculus with 16 samples.

Results

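The mitochondrially encoded genes are the genes carried by the mitochondrion's own small circular genome, and they were taken here as every gene whose symbol begins with mt-. The rule gave 37 of the 57132 genes in the count table, namely 13 mRNAs, 2 ribosomal RNAs (rRNAs) and 22 transfer RNAs (tRNAs). Mouse neural stem cells in self-renewing culture, which the labels shorten to GF, were profiled by total RNA-seq in 12 libraries. The treated libraries, labelled gRNA, received an agent named TAPIR, and the control libraries did not; neither the agent nor the target of a guide RNA is described in the labels, so no targeted gene could be checked. Batch 1 held gRNA libraries 1 to 3 and control libraries 1 to 3, and batch 2 held gRNA libraries 4 to 6 and control libraries 4 to 6. Library numbers are names only, and no label says whether libraries came from separate cultures, so the spread behind each p-value is that between libraries and may be technical. A further 4 libraries, 2 per group, held ribosome footprints.

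The mitochondrial genome is transcribed from both strands into long precursor RNAs, from which tRNAs, rRNAs and mRNAs are cut apart. Its mRNAs encode core membrane subunits of the respiratory chain and of ATP synthase, and its rRNAs and tRNAs serve a separate mitochondrial translation system whose proteins are all encoded in the nucleus. Neural stem cells draw more on oxidative metabolism as they differentiate, and mitochondrial mRNAs are usually among the more abundant transcripts of a cell. Stretches of mitochondrial sequence have also been copied into the nuclear genome, where they are annotated as predicted pseudogenes.

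RNA-seq depth, as reads counted in genes, ran from 8414028 to 19454390 in batch 1 and from 13011630 to 16984538 in batch 2. The shallowest library was control 2 and the next was gRNA 1, at 10515276 reads. Reads in no annotated gene were 19.0% to 25.1% of batch 1 libraries and 8.83% to 12.7% of batch 2 libraries, and reads without a unique alignment were 1.87% to 2.34% and 2.49% to 2.77%. Within batch 2, control 6 and gRNA 6 stood apart: their median rank correlation with the other libraries of the batch was 0.903 and 0.964, against 0.989 to 0.990 for the other libraries, over genes with a mean of at least 500 reads, which are not independent of each other. All 8 neural stem cell markers examined, among them Sox2, Nes and Pax6, were at 1 count per 1000000 reads in genes (CPM) or more in every library, with a summed level of 2105 to 3420 CPM. Summed markers of neurons were at 629 to 843 CPM, mostly Map2, and those of microglia were at 0.140 to 0.794 CPM. Astrocyte markers summed to 103 to 205 CPM in batch 1 and 31.7 to 128 CPM in batch 2, with Aldh1l1 at 66.3 to 154 and 7.79 to 35.2 CPM but S100b, in the other direction, at 6.66 to 12.97 and 22.03 to 52.4 CPM, and oligodendrocyte markers to 3.85 to 6.85 and 8.53 to 31.5 CPM.

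Of the 37 mitochondrial genes, 13 had a mean of at least 10 reads per library, 19 had 3 or fewer reads in every library, and 5 lay in between. The 13 counted genes were 10 mRNAs, both rRNAs and the proline tRNA gene mt-Tp. All 19 genes at the floor were tRNA genes. None of these 19 exceeded 2 reads in any library, and 8 of them had no read in any of the 12. A count of 0 allowed a level of up to 0.154 to 0.357 CPM (3 reads, counting error only), depending on the library. The genes in between were mt-Atp8, mt-Atp6 and mt-Nd4l among the mRNAs and mt-Tn and mt-Tc, the asparagine and cysteine tRNA genes. Together the 37 genes took 16008 to 17137 reads in batch 1 libraries and 16769 to 17183 in batch 2 libraries, which was 0.0881% to 0.195% and 0.101% to 0.129% of the reads in genes. In bulk RNA, fewer cells of a type and less RNA per cell cannot be told apart. The highest share, 0.195%, was in control 2, the shallowest library, and the lowest, 0.0881%, in control 3, the deepest.

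Subunits of respiratory complex I are encoded by 7 of the mRNAs, and 5 of these were counted at high and nearly equal numbers in every library. mt-Nd1, a core membrane subunit of complex I, had 1645, 1675 and 1679 reads in gRNA libraries 1 to 3 and 1641, 1631 and 1681 in control libraries 1 to 3. In batch 2, mt-Nd1 had 1714, 1708 and 1721 reads in gRNA libraries 4 to 6 and 1717, 1716 and 1708 in control libraries 4 to 6. The gRNA and control libraries overlapped within each batch, and all 6 batch 2 libraries lay above all 6 batch 1 libraries. mt-Nd2, which encodes another proton-pumping subunit of the same membrane arm, had 1748, 1788 and 1809 reads in gRNA and 1723, 1737 and 1820 in control libraries of batch 1. In batch 2, mt-Nd2 had 1842, 1841 and 1849 reads in gRNA and 1819, 1844 and 1847 in control libraries. Its highest batch 1 library, control 3, lay just above its lowest batch 2 library, control 4.

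mt-Nd4 and mt-Nd5 encode large antiporter-like subunits of the same arm. mt-Nd4 had 970, 1003 and 1024 reads in gRNA and 970, 985 and 1017 in control libraries of batch 1, and 1077, 1052 and 1054 in gRNA and 1059, 1051 and 1054 in control libraries of batch 2. mt-Nd5 had 3208, 3248 and 3274 reads in gRNA and 3184, 3084 and 3292 in control libraries of batch 1, and 3331, 3338 and 3294 in gRNA and 3278, 3294 and 3303 in control libraries of batch 2. The batches did not overlap for mt-Nd4 and overlapped for mt-Nd5. mt-Nd6 is the only one of the 13 mRNAs read from the other strand. mt-Nd6 had 777, 758 and 772 reads in gRNA and 755, 750 and 780 in control libraries of batch 1, and 784, 787 and 789 in gRNA and 773, 779 and 792 in control libraries of batch 2. No source used here gives the strand setting of the counting, so reads of mt-Nd6 cannot be told apart from reads of the opposite strand. The remaining complex I genes, mt-Nd3 and mt-Nd4l, had few reads. mt-Nd3 had 15, 16 and 15 reads in gRNA and 19, 14 and 11 in control libraries of batch 1, and 14, 19 and 18 in gRNA and 12, 15 and 11 in control libraries of batch 2. mt-Nd4l had 0 to 6 reads in every library.

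mt-Cytb encodes cytochrome b, the one mitochondrially encoded subunit of complex III. It had 1976, 2013 and 2017 reads in gRNA and 1967, 1937 and 2017 in control libraries of batch 1, and 2101, 2099 and 2104 in gRNA and 2091, 2098 and 2100 in control libraries of batch 2. The batch 2 values ran from 2091 to 2104 and all lay above batch 1. mt-Co1 encodes the catalytic subunit of cytochrome oxidase, complex IV. It had 2065, 2134 and 2151 reads in gRNA and 2079, 2101 and 2167 in control libraries of batch 1, and 2110, 2086 and 2086 in gRNA and 2089, 2108 and 2097 in control libraries of batch 2. Here the batches overlapped, with the batch 2 values inside the range of batch 1.

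The other complex IV subunit genes and the ATP synthase genes were near the floor in the same libraries. mt-Co2, which encodes the subunit that receives electrons from cytochrome c, had 6, 4 and 9 reads in gRNA and 9, 6 and 6 in control libraries of batch 1, and 23, 20 and 36 in gRNA and 31, 21 and 28 in control libraries of batch 2. mt-Co3, a structural core subunit of the same complex, had 11, 5 and 4 reads in gRNA and 8, 8 and 4 in control libraries of batch 1, and 17, 16 and 23 in gRNA and 21, 22 and 30 in control libraries of batch 2. The batches did not overlap for either gene, and gRNA and control libraries overlapped within each batch. mt-Atp6, the proton channel subunit of ATP synthase, had 2 to 4 reads in batch 1 and 11 to 16 in batch 2. mt-Atp8, the small accessory subunit, had 0 to 4 and 1 to 6 reads. The open reading frames of mt-Atp8 and mt-Atp6 overlap, as do those of mt-Nd4l and mt-Nd4, so reads in a shared stretch can be lost as ambiguous. The part of such loss in the low counts was not tested.

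The rRNAs were counted although the library kit, per the labels, removes ribosomal RNA. mt-Rnr1, the small-subunit 12S rRNA, had 1662, 1550 and 1552 reads in gRNA and 1581, 1655 and 1675 in control libraries of batch 1, and 1396, 1376 and 1307 in gRNA and 1299, 1335 and 1278 in control libraries of batch 2. mt-Rnr2, the large-subunit 16S rRNA, had 2592, 2085 and 1863 reads in gRNA and 1971, 2422 and 2544 in control libraries of batch 1, and 2639, 2615 and 2510 in gRNA and 2445, 2639 and 2454 in control libraries of batch 2. Every batch 2 library lay below every batch 1 library for mt-Rnr1, while the batches overlapped for mt-Rnr2. The ratio of mt-Rnr2 to mt-Rnr1 reads was 1.20 to 1.56 in batch 1 and 1.88 to 1.98 in batch 2, with no overlap. With a depleted RNA, these counts describe what passed the depletion and not the amount in the cell.

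The 22 tRNA genes together took 1250 reads in the 12 libraries, of which 1092 were assigned to mt-Tp. mt-Tp had 67, 89 and 110 reads in gRNA and 87, 78 and 104 in control libraries of batch 1, and 97, 107 and 83 in gRNA and 98, 92 and 80 in control libraries of batch 2. Its groups and its batches overlapped. mt-Tn had 4 to 7 reads in each library and mt-Tc 2 to 10. The genes mt-Tp, mt-Tn and mt-Tc all lie on the strand opposite to most mRNAs, and without a stated strand setting their reads cannot be told apart from those of the precursor that crosses them.

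The counts of the abundant members barely moved with sequencing depth. Between the shallowest and the deepest library, depth rose 2.31-fold in batch 1 and 1.31-fold in batch 2. Over the same 6 libraries of batch 1, the highest count divided by the lowest was 1.03 for mt-Nd1, 1.04 for mt-Nd6 and mt-Cytb, 1.05 for mt-Co1, 1.06 for mt-Nd4 and mt-Nd2, 1.07 for mt-Nd5 and 1.08 for mt-Rnr1. Among the 7949 genes with a mean of at least 500 reads, these 8 genes had the 8 lowest ratios. The other 7940 genes of that level, which exclude the 9 mitochondrial ones, had a median ratio of 2.51. The closest of them was Malat1, a nuclear long noncoding RNA, at 1.08. Next came a gene without a symbol and Eef1a1, a translation elongation factor, both at 1.11. mt-Rnr2 had a ratio of 1.39 and ranked 149.

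In batch 2, the 7 abundant mRNAs again had the lowest 7 ratios, from 1.01 for mt-Cytb to 1.02 for mt-Nd4, against a median of 1.48 over the other 7940 genes. The rRNAs stood at 1.09 for mt-Rnr1, rank 57, and 1.08 for mt-Rnr2, rank 37. The slope of log count on log depth, where 1 means a count in proportion to depth and 0 a count that does not follow it, was 0.02 to 0.06 for the 7 mRNAs in batch 1 and −0.01 to 0.06 in batch 2. The other genes had a median slope of 1.08 in batch 1, with 5th and 95th percentiles of 0.537 and 1.497, and a median of 1.09 in batch 2, with percentiles of 0.28 and 2.03. mt-Rnr1 had slopes of −0.05 and 0.31, and mt-Rnr2 of −0.18 and 0.34, in batches 1 and 2.

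**Figure D1:**
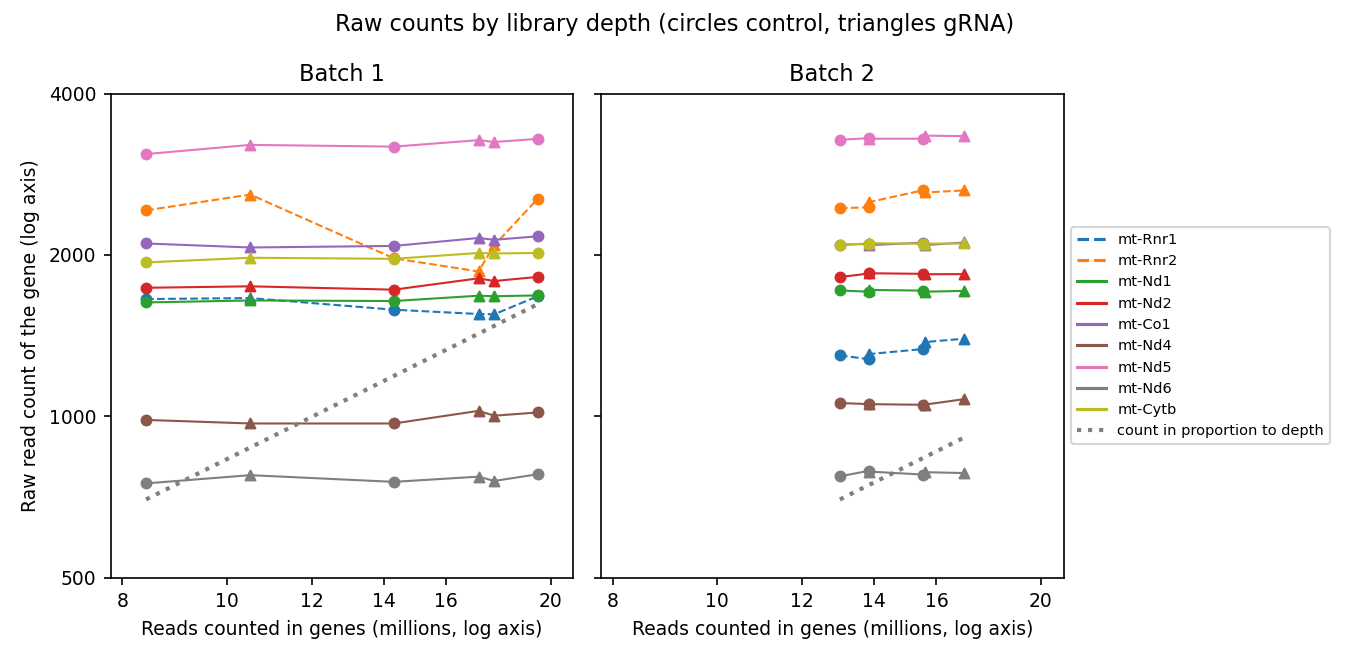
Raw read counts of the 9 abundant mitochondrial genes (vertical axis, log scale) against reads counted in genes (horizontal axis, log scale), for the 6 libraries of each batch; circles are control and triangles gRNA libraries, and the dotted line shows a count in proportion to depth. The lines of the 7 mRNAs are almost flat while depth rises 2.31-fold in batch 1, and the dashed lines of the 2 rRNAs scatter more.

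Most other genes of the same level did follow depth. Those with a mean of 1000 to 2000 reads numbered 2991 and had a median ratio of 2.51 and a median slope of 1.08 in batch 1. The 1771 other genes with a mean of 2000 to 4000 reads had a median ratio of 2.28 and a median slope of 0.98, and the 430 with a mean of 4000 or more had 2.03 and 0.86. None of these genes had a batch 1 ratio below that of mt-Rnr1. Some of them were nearly flat as well. A gene without a symbol, at a mean of 3071 reads, had slopes of 0.026 and −0.001 in batches 1 and 2. Eef1a1, Igfbp2 and Actb had slopes of 0.13, 0.13 and 0.17 in batch 1 and 0.29, 0.27 and 0.24 in batch 2. The spread was also smaller than independent counting of reads would give for most members: the variance of the raw count divided by its mean, which is 1 for Poisson counts, was below 1 for 6 of the 9 members in batch 1 and for 7 of 9 in batch 2. It was 0.295 and 0.0156 for mt-Nd1 and 0.553 and 0.00904 for mt-Cytb in batches 1 and 2. Of the 7940 other genes, 0 had a value below 1 in batch 1 and 24 did in batch 2. No source used here says how duplicate reads were handled, and its part in this was not tested.

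Set per base of gene, the abundant members fell into a narrow band. Levels per base use gene lengths from RefSeq on GRCm38.p6, in which all 37 genes were found, and the mean over 12 libraries is given with the lowest and highest library. mt-Cytb stood at 1.79 reads per base (1.69 to 1.84), mt-Nd5 at 1.79 (1.69 to 1.83), mt-Nd1 at 1.76 (1.70 to 1.80) and mt-Nd2 at 1.74 (1.66 to 1.78). These 4 neighbours in the order of levels overlapped across libraries. Below them came mt-Rnr1 at 1.54 (1.34 to 1.75), mt-Rnr2 at 1.52 (1.18 to 1.67), mt-Nd6 at 1.49 (1.45 to 1.53), mt-Co1 at 1.36 (1.34 to 1.40) and mt-Tp at 1.36 (1.00 to 1.64). mt-Nd6 and mt-Co1 did not overlap each other, and the ranges of both rRNAs and mt-Tp reached over both of them. No mitochondrial gene reached 2 reads per base in any library.

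A step down separated these genes from the rest. mt-Nd4 stood at 0.745 reads per base (0.704 to 0.782), with no overlap with any gene above it. Among the mRNAs, mt-Nd3 followed at 0.0429, mt-Co2 at 0.0242, mt-Co3 at 0.0180, mt-Atp6 at 0.0115, mt-Atp8 at 0.0110 and mt-Nd4l at 0.0104, again as means over 12 libraries. In the order of genes in the same assembly, these 6 mRNAs are neighbours: mt-Co2, mt-Atp8, mt-Atp6, mt-Co3, mt-Nd3 and mt-Nd4l follow one another between mt-Co1 and mt-Nd4, with only tRNA genes among them. The 6 together took 28 to 42 reads in batch 1 libraries and 71 to 100 in batch 2 libraries. Their flanking genes mt-Co1 and mt-Nd4 had at least 2065 and 970 reads in each library.

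**Figure D2:**
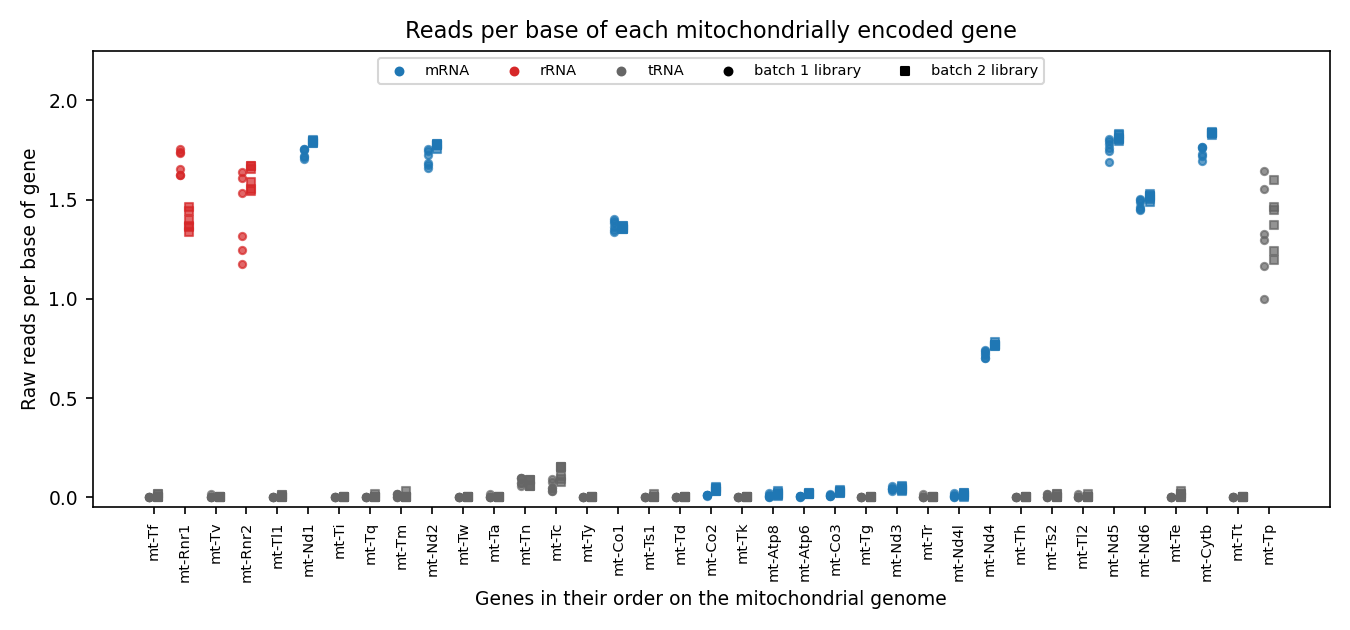
Raw reads per base of gene (vertical axis) for all 37 mitochondrial genes in their genome order (horizontal axis), with 1 point per library; blue is mRNA, red rRNA and grey tRNA, circles are batch 1 and squares batch 2. The genes from mt-Co2 to mt-Nd4l lie near 0 between mt-Co1 and mt-Nd4, and no point reaches 2 reads per base.

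HTSeq usually leaves out reads that align at more than 1 place, so reads shared by a mitochondrial gene and a nuclear copy of its sequence may be counted for neither; no source used here gives its settings. Of 8 predicted pseudogenes listed from general knowledge as such copies, 7 were in the count table, and 2 of these were found in RefSeq; their sequence was not examined here. Gm28438 had 13, 22 and 12 reads in gRNA and 17, 14 and 8 in control libraries of batch 1, and 136, 160 and 96 in gRNA and 111, 120 and 111 in control libraries of batch 2. Gm28437 had 0 to 8 reads in batch 1 and 28 to 47 in batch 2, Gm28439 had 7 to 19 and 50 to 59, and Gm28661 had 2 to 9 and 27 to 38. Gm29216 had 9 to 12 reads in batch 1 and 30 to 41 in batch 2, Gm10222 had 0 to 13 and 20 to 32, and Gm10925 had 8 to 13 and 27 to 37. None of the 7 copies overlapped between batches, and their sum was 40 to 88 reads in batch 1 and 312 to 396 in batch 2. Over 16565 genes with a mean of at least 10 reads, 9.63% lay wholly higher in batch 2 and 11% wholly lower. Gm28661, Gm28437, Gm10222 and Gm10925 had batch 1 means of 6.17, 4.5, 5.17 and 9.33 reads. They met that mean only through batch 2, so for them the comparison is not independent of the threshold. In every library of both batches the copies had more reads together than the 6 low mRNAs, which had 28 to 42 in batch 1 and 71 to 100 in batch 2.

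In the comparison of batch 2 with batch 1, with treatment as a term, 10879 of 17704 genes tested passed edgeR's quasi-likelihood test at a Benjamini-Hochberg adjusted p of 0.05, which is 61.4% of genes (28.4% higher and 33.1% lower in batch 2). Of the 37 mitochondrial genes, 14 passed the filter on low counts, and 4 of these 14 were called, a smaller share than over all genes. mt-Co2 rose by 1.87 on the log2 scale (SE 0.32, edgeR adjusted p = 0.00017), mt-Atp6 by 1.92 (SE 0.33, edgeR adjusted p = 0.00016) and mt-Co3 by 1.498 (SE 0.39, edgeR adjusted p = 0.00439). mt-Rnr1 fell by 0.52 (SE 0.21, edgeR adjusted p = 0.0424). These edgeR values are relative to TMM-scaled library sizes. mt-Co2, mt-Atp6 and mt-Co3 passed the filter only through batch 2, where they were higher, and were not tested in batch 1 alone. Their calls are therefore not independent of the filter. With no filter on low counts their log2 values were 1.90, 1.96 and 1.54, also called. Without scaling, the mean raw count of batch 2 over batch 1 was 3.98-fold for mt-Co2, 4.22-fold for mt-Atp6, 3.23-fold for mt-Co3 and 0.826-fold for mt-Rnr1. All 7 nuclear copies rose in the same test, by 1.56 on the log2 scale for Gm29216 to 2.99 for Gm28437. Of these 7, only 3 passed the filter in batch 1 alone, against 7 in batch 2 alone. The others were thus tested only through the batch where they were higher, and their calls are not independent of the filter. Among the other low mRNAs, mt-Nd3 was not called, at −0.18 (SE 0.28), and mt-Atp8 and mt-Nd4l did not pass the filter. What the 2 batches differed in is not labelled, so the batch and anything that came with it cannot be told apart. The part of the copies, unassigned reads or astrocyte and oligodendrocyte markers in the rise of mt-Co2, mt-Atp6 and mt-Co3 was not tested.

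The call for mt-Rnr1 was lost in 7 of the 12 fits that left out 1 library. Those libraries were control 2, 4, 5 and 6 and gRNA 1, 4 and 5. Its log2 value ranged from −0.61 to −0.27 over these 12 fits, with −0.27 without control 2 (edgeR adjusted p = 0.135) and −0.37 without gRNA 1 (edgeR adjusted p = 0.132). Without gRNA 6 and control 6 together it was −0.55 (edgeR adjusted p = 0.0622). With library totals in place of TMM it was −0.42 (edgeR adjusted p = 0.0604). The calls for mt-Co2, mt-Atp6 and mt-Co3 held in each of the 12 fits, which used the same filter. Their log2 values were 1.68 to 1.99, 1.76 to 2.13 and 1.27 to 1.86. On raw counts without scaling, 5 of the 13 counted members, mt-Nd1, mt-Co2, mt-Co3, mt-Nd4 and mt-Cytb, were higher in every batch 2 library than in any batch 1 library, against 9.63% of 16565 genes with a mean of at least 10 reads. One, mt-Rnr1, was lower in every batch 2 library, against 11% of genes. Of the 5 higher genes, mt-Co2 and mt-Co3, each with a batch 1 mean of 6.67 reads, reached a mean of 10 only through batch 2. Their place in this count is therefore not independent of that threshold. For mt-Nd1, mt-Nd4 and mt-Cytb the edgeR values lay on the other side of 0, at −0.18 (SE 0.19), −0.13 (SE 0.19) and −0.15 (SE 0.19), none of them called. A gene with exactly the same count in every library would have a CPM log2 ratio of −0.14, batch 2 over batch 1, from the depths alone. That value is on CPM and not on TMM-scaled library sizes.

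**Figure D3:**
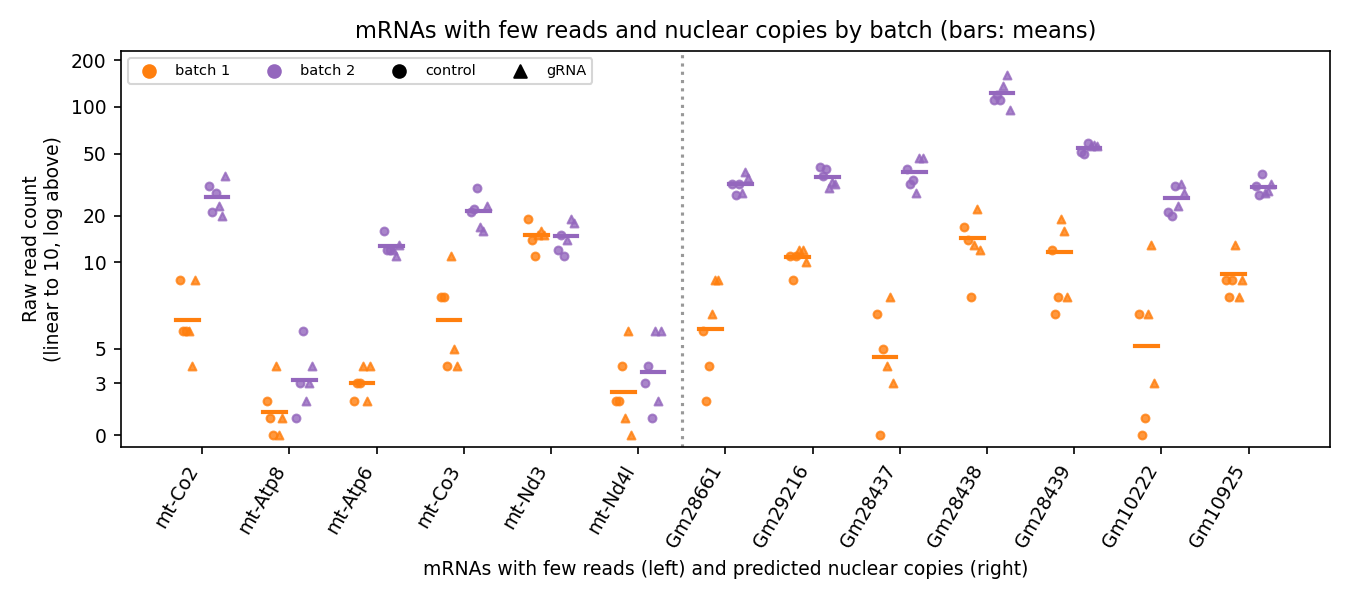
Raw read counts (vertical axis, linear to 10 and log above) of the 6 mRNAs with few reads and of the 7 predicted nuclear copies, with 1 point per library; orange is batch 1 and purple batch 2, circles are control and triangles gRNA, and bars are means over 6 libraries. All 7 copies, and mt-Co2, mt-Atp6 and mt-Co3 among the mRNAs, lie higher in every batch 2 library than in any batch 1 library. Of 16565 genes with a mean of at least 10 reads, 9.63% did so. mt-Atp6, at a mean of 7.83 reads, is not among these genes, and several genes shown reached a mean of 10 only through batch 2.

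The treatment comparison, gRNA against control with batch as a term, called 0 of 17704 genes (percent called 0) by edgeR's quasi-likelihood test, and so 0 of the 14 mitochondrial genes tested. At an unadjusted p under 0.05 the test had 230 genes, and DESeq2 also called 0. Of the 14, 13 had a log2 value below 0, against 52.3% of all genes tested, with a median of −0.19 against −0.01 over all genes tested. These genes are not independent of each other. The values were −0.20 for mt-Co1 (SE 0.19, 95% interval −0.62 to 0.21), −0.18 for mt-Nd5 (SE 0.19, −0.58 to 0.23), −0.19 for mt-Cytb (SE 0.19, −0.60 to 0.23) and −0.20 for mt-Rnr2 (SE 0.23, −0.70 to 0.30). The exception was mt-Nd3 at 0.07 (SE 0.28, −0.54 to 0.68). Intervals of this width do not show that the groups were alike.

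Within batch 1 alone, 0 of 16988 genes were called (percent called 0, 147 at an unadjusted p under 0.05). All 11 mitochondrial genes tested were below 0, against 51.3% of all genes tested, and their median was −0.23. That median was 0.22 without control 2 and ran from −0.51 to −0.06 without each other library: −0.51 without gRNA 1, −0.47 without control 3, −0.35 without control 1, −0.12 without gRNA 3 and −0.06 without gRNA 2. Within batch 2 alone, 0 of 15647 genes were called (percent called 0, 116 at an unadjusted p under 0.05). Of the 14 mitochondrial genes tested, 13 were below 0, against 49.7% of all genes tested, and their median was −0.13. That median was −0.06 without gRNA 4, −0.08 without control 4, −0.20 without control 5 and −0.25 without gRNA 6. Without gRNA 6 and control 6 together, a choice made after seeing the data, 0 genes were called and the median of the 14 was −0.23. In that fit 606 genes and 8 of the 14 mitochondrial genes had an unadjusted p under 0.05. The abundant mitochondrial genes have almost constant raw counts and are not independent of each other, so the 8 are not separate results. A difference in effect from one batch to the other was called for 0 of 18279 genes (percent called 0, 236 at an unadjusted p under 0.05). DESeq2 called 0 genes in each of these 3 fits as well.

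The raw counts behind these values hardly differed between the groups. The log2 ratio of mean raw counts, gRNA over control, was 0.00 to 0.03 for the 7 abundant mRNAs in batch 1 and 0.00 to 0.01 in batch 2. The same ratio on CPM, which divides each count by the library's reads in genes, was −0.20 to −0.16 in batch 1 and −0.13 to −0.12 in batch 2. A gene with exactly the same count in every library would have a CPM log2 ratio of −0.19 in batch 1 and −0.13 in batch 2, from the depths alone. For mt-Co1, mean CPM in batch 1 was 147 ± 42.5 (SD, n = 3) in gRNA and 169 ± 72.1 (SD, n = 3) in control libraries, and in batch 2 it was 136 ± 13.3 (SD, n = 3) and 149 ± 12.6 (SD, n = 3). The group difference was smaller than the SD of its control group in batch 1 and of about its size in batch 2. For mt-Rnr1 and mt-Rnr2 the raw log2 ratios were −0.04 and −0.09 in batch 1 and 0.06 and 0.04 in batch 2, against −0.23 and −0.24, and −0.07 and −0.09, on CPM.

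**Figure D4:**
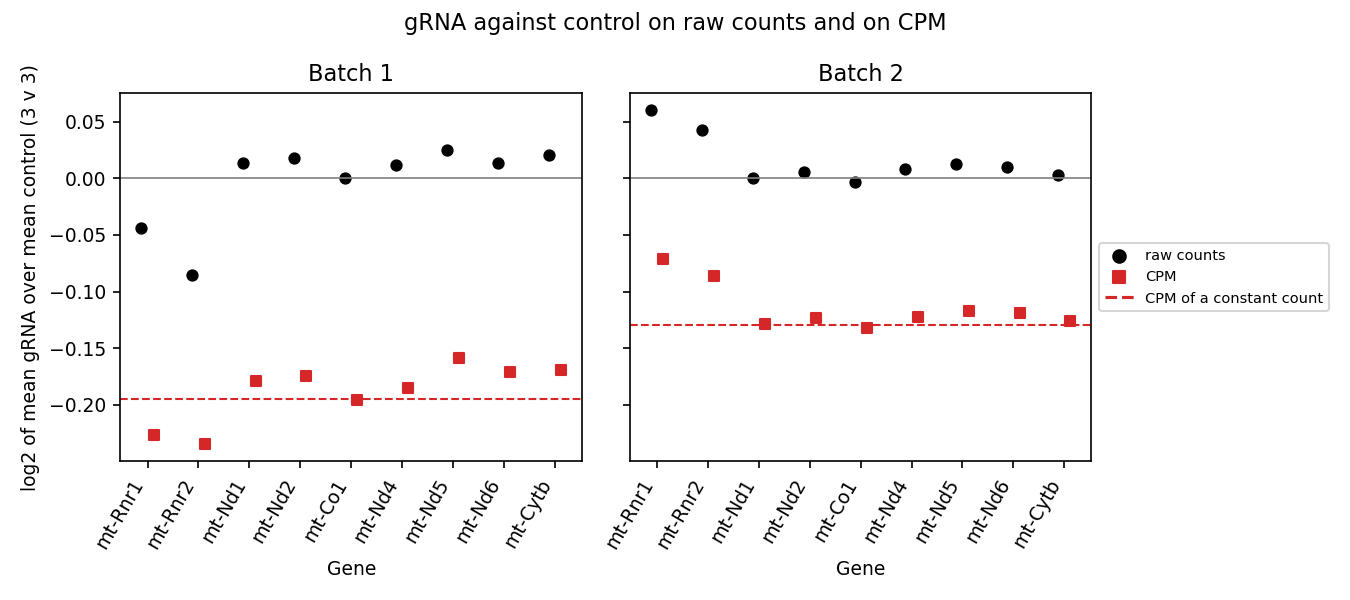
Log2 ratio of the mean in 3 gRNA over 3 control libraries (vertical axis) for the 9 abundant mitochondrial genes in each batch; black circles use raw counts, red squares CPM, the dashed line marks the CPM ratio of a constant count, and no error bars are drawn. The raw ratios of the 7 mRNAs lie near 0 and their CPM ratios near the dashed line, at −0.19 in batch 1 and −0.13 in batch 2.

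Over both batches, the sign of the treatment values of the 9 abundant genes changed without control 2, the shallowest library. Their log2 values then lay above 0, from 0.00044 for mt-Co1 to 0.038 for mt-Rnr2, and none was called by edgeR. mt-Co2, mt-Atp6, mt-Co3 and mt-Tp were still below 0 without it, at −0.14, −0.10, −0.26 and −0.02. Without gRNA 1, the next shallowest, mt-Co1 stood at −0.32. mt-Nd3 was below 0 without control 3, gRNA 1 or gRNA 6.

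Among the reads of the 9 abundant genes, mt-Nd5 took 19.6% ± 0.536 (SD, n = 6) in batch 1 and 19.7% ± 0.120 (SD, n = 6) in batch 2, and mt-Nd6 4.68% ± 0.0791 and 4.67% ± 0.0581. The share of mt-Rnr1 was 9.85% ± 0.235 in batch 1 and 7.94% ± 0.203 in batch 2, and that of mt-Rnr2 was 13.7% ± 1.64 and 15.2% ± 0.403. The shares are of a closed sum, so a lower share of 1 gene raises the others.

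The nuclear genes that serve mitochondrial gene expression were examined as lists beside the 37 members. Factors of mitochondrial transcription and DNA maintenance, such as the polymerases Polrmt and Polg, had 0 of 18 tested members called for gRNA against control, with 15 above 0 and a median log2 value of 0.07 against −0.01 over all genes. Those with the smallest p were Top1mt, the mitochondrial topoisomerase, at 0.25 (SE 0.13), and Rnaseh1, which removes RNA from RNA-DNA hybrids, at 0.16 (SE 0.10). RNA processing and stability factors had 0 of 24 called, 19 above 0 and a median of 0.07, with Trmt10c, a subunit of mitochondrial RNase P, at 0.18 (SE 0.12) and the rRNA methyltransferase Mrm1 at 0.21 (SE 0.15).

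Translation factors had 0 of 15 called, 12 above 0 and a median of 0.04, with the membrane insertase Oxa1l at −0.13 (SE 0.07) and the elongation factor Guf1 at 0.11 (SE 0.10). Aminoacyl-tRNA synthetases, which charge tRNAs with amino acids, had 0 of 19 called, 15 above 0 and a median of 0.05, with Nars2 at 0.17 (SE 0.11) and Mars2 at 0.14 (SE 0.14). Mitochondrial ribosomal proteins had 0 of 78 called, 63 above 0 and a median of 0.05, with Mrps18c at 0.20 (SE 0.11) and Mrpl47 at 0.17 (SE 0.10). Over all 17704 genes tested, 52.3% were below 0. Genes of a list are not independent of each other, so counts above 0 are not separate results.

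In batch 2 against batch 1, genes of each nuclear list were called, beside the 61.4% of all genes called. Transcription and DNA maintenance had 6 of 18 higher and 2 lower, with Polrmt, the mitochondrial RNA polymerase, at 0.37 (SE 0.07) and Polg, the DNA polymerase, at 0.35 (SE 0.07). RNA processing had 3 of 24 higher and 10 lower, with Fastkd1, an RNA-binding regulator of mitochondrial transcripts, at −0.61 (SE 0.10) and the exoribonuclease Pnpt1 at −0.58 (SE 0.11). Translation factors had 0 of 15 higher and 5 lower, with the elongation factor Gfm1 at −0.41 (SE 0.09) and the initiation factor Mtif2 at −0.26 (SE 0.09). Synthetases had 3 of 19 higher and 1 lower, with Aars2 at 0.45 (SE 0.08) and Hars2 at 0.33 (SE 0.07). Ribosomal proteins had 18 of 78 higher and 9 lower, with Mrpl1 at −0.50 (SE 0.07) and Mrps11 at 0.57 (SE 0.09). Each of these 10 named genes was called by edgeR.

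In the footprint data, presence of the 13 mRNAs could only be bounded. The deposited table of ribosomal P-sites lists 2859681 entries on 74042 transcripts in 4 libraries, which held 102683 to 2174905 entries each. None of the 4 library names matched a label, so no library could be placed in a group, and transcripts are given by identifiers that the files used here do not pair with symbols. A transcript was therefore kept as a candidate for a mitochondrial mRNA where its coding sequence began at its first base, had that mRNA's coding length and had no entry beyond its end. This left 49 candidate transcripts with 1541 entries, an upper bound of 0.0539% of all entries (95% Wilson interval 0.0513 to 0.0566, counting error only) and of 0.0475% to 0.0828% per library. The coding lengths were those of RefSeq on GRCm38.p6. These are upper bounds only if the footprint annotation gives each mitochondrial mRNA the same coding positions, which was not checked. Most candidates may belong to nuclear genes of the same coding length.

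All bounds by length rest on the same condition. They were lowest for mt-Nd4 and mt-Co3. At the coding length of mt-Nd4, 1378 bases, at most 1 entry lay in the 4 libraries. At that of mt-Co3, 784 bases, the bound was 2. mt-Cytb, with a single candidate transcript of 1144 bases, had at most 53 entries, of which 50 were in 1 library, and mt-Co1 at most 56. The bounds were 10 entries for mt-Atp8, 16 for mt-Nd4l, 26 for mt-Nd5, 70 for mt-Nd2, 81 for mt-Co2, 132 for mt-Nd1 and 173 for mt-Nd6. They were highest for mt-Nd3, with 355 entries over 7 candidates, and mt-Atp6, with 566 over 7. mt-Nd4 and mt-Cytb, with at least 970 and 1937 reads in every RNA-seq library, had at most 1 and 53 entries, from 1 candidate transcript each. mt-Nd3 and mt-Atp6, with few RNA-seq reads, had the widest bounds, from 7 candidates each. The bounds depend on which transcripts share a coding length, so they show no relation between footprints and RNA level. The rRNAs and tRNAs have no coding sequence and were not looked for.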

How the data were processed

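Per the labels' protocols, total RNA came from RNeasy Mini columns, and an Illumina stranded total RNA kit with Ribo-Zero Plus depletion gave the libraries. Trimmomatic, STAR, SAMtools and HTSeq on GRCm39 handled the RNA-seq, per the submitters' processing notes, and cutadapt 5.2, UMI-tools 1.1.6 and STAR 2.7.10b the footprints. The deposited RNA-seq values are raw counts per Ensembl gene, and the deposited P-site table gives positions, with no count per gene. No source used here gives the strand or duplicate settings.

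The 5 summary lines of each count file were left out of all totals. Symbols matched 51880 of 57132 identifiers (90.8%). CPM is per 1000000 reads in genes; slopes used counts plus 0.5; lengths and gene order came from RefSeq (GRCm38.p6), so no coordinates are given. Counts of all genes were fitted with edgeR 4.0.16 (R 4.3.3): filterByExpr with a minimum count of 10, TMM, quasi-likelihood test, Benjamini-Hochberg at 0.05 over all genes, batch and treatment as terms. Alternatives were DESeq2 1.42.0, library totals, no filter, no batch term and leaving out each library; leaving out gRNA 6 and control 6 together was added after seeing the data. Tables were made with Python 3.11.15.

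All 37 members are accounted for, in every library where the mean is at least 10 reads and otherwise by range; each nuclear-encoded list names the 2 genes with the smallest p in a comparison, and the nuclear copies are named in full. The members and lists were chosen with earlier results of these data known. No mitochondrial sequence was printed.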

Additional observations from a re-analysis of the deposited data

Results flagged for a closer look

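The raw counts of each of the 13 counted genes were screened for a library far from the rest of its treatment group, in 26 groups of 6 libraries that join both batches. A library stood out where its gap to the nearest other library, divided by the range of the group, was above 0.625 (Dixon's test for 6 values, 95%). In 2 of the 26 groups this was so. The nominal rate of the test is 5%, for 6 independent values of 1 normal population. These groups join 2 batches and the genes are not independent, so 5% is not the chance rate here. mt-Rnr2 in control 1 was low, at 1971 reads, with a gap of 0.675 of the range. mt-Co1 in control 3, the deepest library, was high, at 2167 reads, with a gap of 0.670 of the range.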

How the results depend on the processing

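Counts of called genes kept within 1.5 times under DESeq2, library totals, no batch term and each left-out library, with 3 exceptions when no filter on low counts was used: gRNA against control then gave 1 gene over both batches and 1 in batch 1, and the difference between batches gave 42, against 0 each, with 0 mitochondrial genes among them; that fit also tested more genes. Leaving out 1 library gave 10528 to 12073 calls between batches. In those fits the gRNA log2 values ranged from −0.34 to 0.029 for mt-Rnr1, −0.41 to 0.038 for mt-Rnr2, −0.32 to 0.0067 for mt-Nd1, −0.31 to 0.012 for mt-Nd2, −0.32 to 0.00044 for mt-Co1, −0.31 to 0.011 for mt-Nd4, −0.31 to 0.013 for mt-Nd5, −0.32 to 0.014 for mt-Nd6, −0.31 to 0.0095 for mt-Cytb and −0.085 to 0.23 for mt-Nd3. The batch 2 values ranged from −0.18 to 0.20 for mt-Rnr2, −0.25 to 0.052 for mt-Nd1, −0.24 to 0.062 for mt-Nd2, −0.21 to 0.10 for mt-Nd4, −0.26 to 0.038 for mt-Nd5, −0.27 to 0.038 for mt-Nd6, −0.22 to 0.081 for mt-Cytb and −0.17 to 0.068 for mt-Tp; the upper ends are without control 2, and mt-Rnr2 was also above 0 without gRNA 1, at 0.13. mt-Nd3 for gRNA was −0.047 without gRNA 6 and control 6 together, and mt-Rnr2 between batches was 0.022 with library totals. With library totals the batch value of mt-Rnr1 was −0.42 and missed the threshold (edgeR adjusted p = 0.0604). The causes were not tested. Over all results and alternatives, 562 values kept their direction and side of the threshold or, for counts, stayed within 1.5 times, 23 changed sign, 9 lost a call (all mt-Rnr1 between batches) and 3 counts moved further. Keeping only footprints of 28 to 30 nt, the bound on mitochondrial entries, under the same assumed coding positions, was 505 of 895443, or 0.0564%. No paired analysis was possible because the RNA-seq labels carry no replicate numbers and the footprint libraries, whose labels do, could not be matched to the table. Reads at 0 to 3 per library limit what can be said of most tRNA genes, as do 0 to 6 reads per library for mt-Atp8 and mt-Nd4l.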
